A study of Mus musculus with 3 samples.

Results

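The heat shock proteins and DnaJ cochaperones were taken as every gene with a protein-coding transcript whose symbol begins with Hsp90, with Hspa, Hspb, Hspd, Hspe or Hsph and a digit, or with Dnaja, Dnajb or Dnajc and a digit. The rule found 72 genes among the 21901 with a protein-coding transcript, and it used no measured value. RNA of the chromatin fraction was measured in primary macrophages of strain C57BL/6J, grown from bone marrow and given lipid A at 100 ng/ml for 15 min. The receptor TLR4 binds lipid A, the membrane anchor of bacterial lipopolysaccharide. All 3 libraries belong to this 1 group, without an untreated library, so the values describe levels at this time and not a response. The labels give the 3 libraries separate biosamples and 1 donor label, so whether they come from separate animals is not known and the SD over libraries may be technical. Sex and age were not collected.

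Heat shock proteins are chaperones that bind unfolded or partly folded proteins. HSP70 proteins work through cycles of ATP hydrolysis that DnaJ proteins, also called HSP40, start by delivering a client and stimulating the ATPase, and HSP110 proteins reset by exchanging the nucleotide. HSP90 acts later on a narrower set of clients such as kinases and receptors, the chaperonin Hspd1 with its lid Hspe1 folds proteins inside mitochondria, and small heat shock proteins hold unfolded proteins without using ATP. Some members are made at all times, such as Hspa8, and others, such as Hspa1a and Hspa1b, are best known as genes that the transcription factor HSF1 turns on in heat. In chromatin RNA, transcripts still being made or spliced are enriched, so a level here is closer to recent transcription than to the amount of protein.

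HSF1 binds heat shock elements, inverted repeats of the unit GAA. In RefSeq promoters (build GRCm38.p6, 250 bases before to 50 after each listed start), 58 of the 72 members had at least 1 sequence. The others, with Hspa8, Hspa9, Hsp90aa1 and Hsp90ab1 among them, had none and were not searched. An element of 3 alternating units, GAA and TTC with 2 bases between neighbours, was searched on both strands. It was present in 4 of the 58 members (6.90%), beside 0.575% of the 16519 protein-coding genes and 0.662% of all 27025 genes in the table. Counted by promoter, it was in 8% of the members' 75 and in 0.603% of all 32851. The windows below are shown because they hold these matches, with the matched units and the bases between them in capitals, 5′ to 3′ on the strand of the gene. In Hspd1 and Hspe1 the capitals are 2 overlapping matches, which together make 4 alternating units.
Dnajb6: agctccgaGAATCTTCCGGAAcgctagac
Hspd1: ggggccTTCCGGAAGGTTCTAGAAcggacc
Hspe1: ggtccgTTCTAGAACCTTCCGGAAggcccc
Hsph1: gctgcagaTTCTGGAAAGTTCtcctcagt
The Dnajb6 window is chr5:29735844-29735872 on the plus strand, and the Hsph1 window is chr5:149636280-149636308 on the minus strand, after the listed start. The windows of Hspd1, on the minus strand, and of Hspe1, on the plus strand, are 1 stretch, chr1:55088053-55088082, read from its 2 sides. These genes lie head to head, Hspd1 at chr1:55077835-55088243 and Hspe1 at chr1:55088132-55091307, so that their annotated starts overlap.

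The shorter element of 2 units, GAANNTTC or TTCNNGAA, lies within the longer one and was less selective. It matched 16 of the 58 members (27.6%), beside 15.8% of the protein-coding genes and 17.0% of all genes in the table. Counted by promoter, it matched 24% of the members' and 15.1% of all. Hspa1a and Hspa1b, the paralogs best known for heat induction, held it at the same distance, from 104 to 97 bases before the listed start. They are shown because their windows are the same sequence.
Hspa1a: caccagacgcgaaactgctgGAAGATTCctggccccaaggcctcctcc
Hspa1b: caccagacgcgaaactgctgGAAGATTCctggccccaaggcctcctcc
The windows are chr17:34972233-34972280 for Hspa1a and chr17:34959315-34959362 for Hspa1b, both on the minus strand. Members with the 2-unit match had a median of 2.20 TPM over their means and the 42 without it 5.14 TPM. For the 3-unit element the medians were 7.17 TPM over its 4 members and 4.05 TPM over the other 54, so the medians of the 2 elements differed in direction. TPM is transcripts per 1000000, a level per length in which genes of 1 library can be compared. A match is a string of letters, and binding was not measured.

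Depth was 10974934, 21376404 and 14376665 expected counts in replicates 1, 2 and 3, made from 1 µg, 250 ng and 500 ng of starting RNA. All 8 macrophage markers had at least 1 TPM in every library, with a sum of 506.8 to 902.71 TPM. No marker of neutrophils, T cells, B cells, mast cells or endothelial and stromal cells reached 1 TPM in every library, of 16 listed, and no such list summed to more than 1.29 TPM in a library. Cd3e, Cd3g, Mpo and Fcer1a were listed at 0. A further deposited quantification gave higher values for some of these markers, Cd3d at 16.1 ± 4.35, Pecam1 at 5.76 ± 1.08, Col1a1 at 1.51 ± 0.30, Mpo at 1.49 ± 0.651, Cpa3 at 1.37 ± 0.868, Cd3g at 1.28 ± 0.382 and Camp at 1.24 ± 0.618 TPM (SD, n = 3), and the others there were under 1 TPM in the mean. Their part in the members' levels was not tested. The coding genes took 23.9%, 16.6% and 25.3% of all TPM in replicates 1, 2 and 3, and their median on the log2(TPM + 1) scale, over the 10235 with a mean of at least 1 TPM, stood 0.11 above, 0.36 below and 0.26 above its mean, so a low TPM in replicate 2 is shared by most genes.

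At least 1 TPM in all 3 libraries was reached by 47 of the 72 members (65.3%), beside 42.6% of all genes with a protein-coding transcript. The members' median was 4.97, 2.30 and 5.41 TPM in the 3 libraries, a mean of 4.23 ± 1.68 TPM, and the median of all such genes was 0.56 ± 0.164 TPM (SD, n = 3). Over protein-coding isoforms alone the medians were 2.67 ± 1.06 and 0.307 ± 0.0751 TPM, and in the other deposited quantification the members' median was 8.12 ± 2.40 TPM. Among genes with a mean of at least 1 TPM, the 54 members had a median of 8.30 ± 2.19 TPM and the 10235 genes 8.74 ± 2.21 TPM, which lie within each other's SD. A larger share of the members thus passed 1 TPM, while those that passed in the mean had a median slightly under that of all such genes in each library. Members summed to 1299, 807 and 1192 TPM, which was 0.544%, 0.485% and 0.472% of the TPM of all coding genes. The 6 highest members held 52.2% ± 2.25 of the members' TPM (SD, n = 3).

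**Figure D1:**
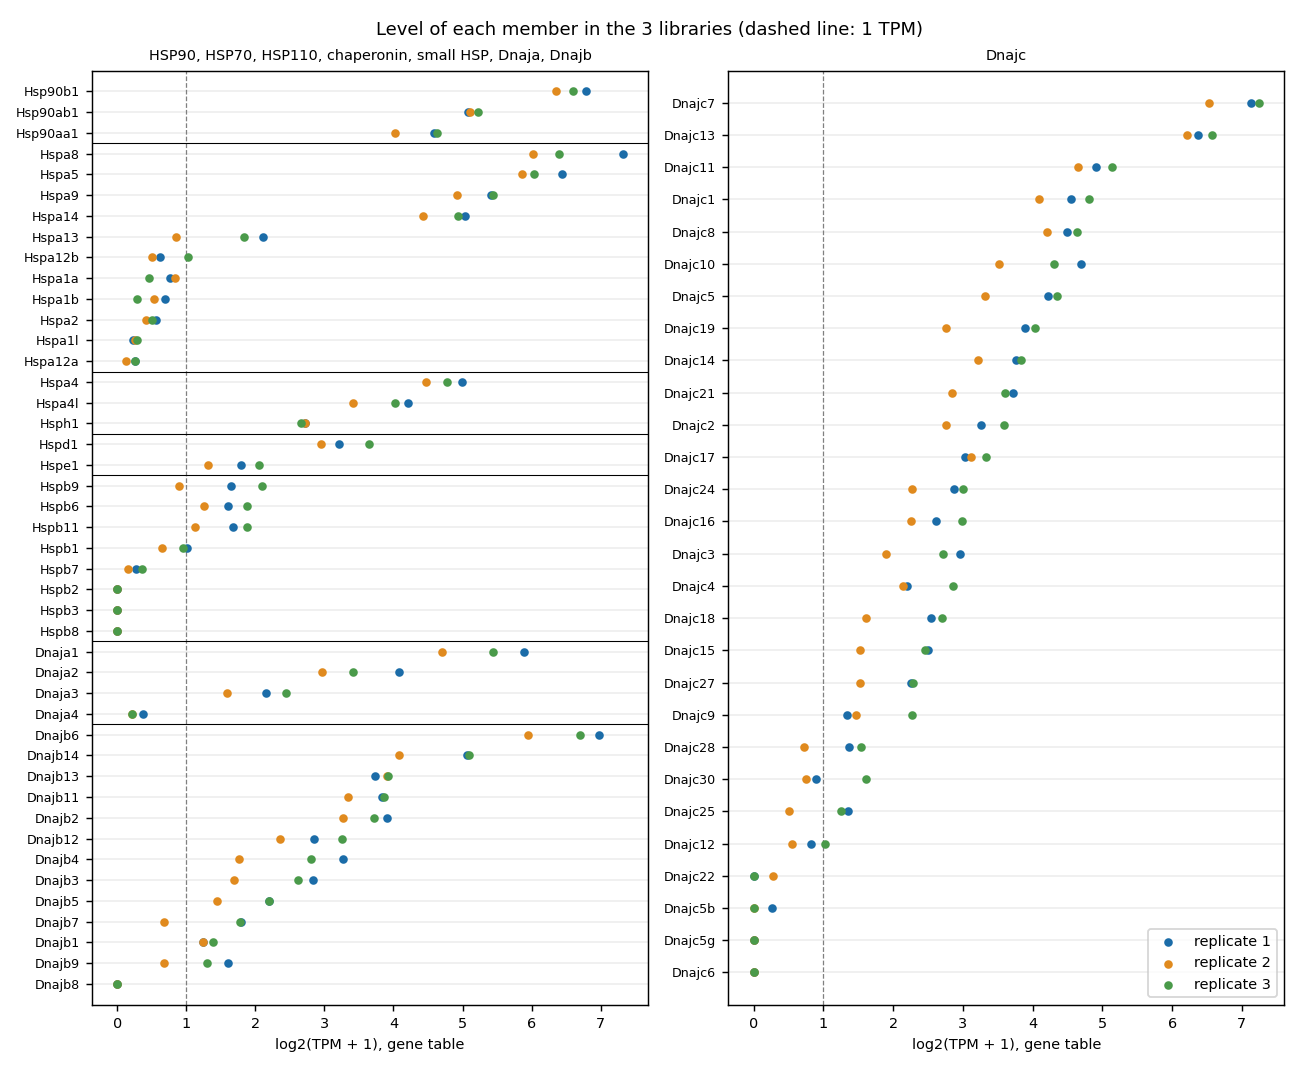
Each point is 1 member in 1 library, on a log2(TPM + 1) axis, with members grouped by role and ordered by mean level within each role (left: all roles except Dnajc, right: Dnajc). The 3 HSP90 members lie above the dashed line of 1 TPM in every library, whereas HSP70 members run from Hspa8 at 64.17 to 158.94 TPM down to Hspa12a at 0.09 to 0.19 TPM.

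All 3 HSP90 members were present in every library. Hsp90b1, the HSP90 of the endoplasmic reticulum, was at 109.73, 81.06 and 96.27 TPM in replicates 1, 2 and 3, a mean of 95.7 ± 14.3 TPM (SD, n = 3). Hsp90ab1, the constitutive cytosolic form, was at 32.69, 33.64 and 36.43 TPM. Hsp90aa1, the heat-inducible cytosolic form, was at 23.10, 15.17 and 23.69 TPM. The reticulum form was thus above both cytosolic forms in each library, and the ranges of the 3 genes do not overlap. Hsp90ab1 exceeded Hsp90aa1 in 3 of 3 libraries, by 0.73 ± 0.33 in log2(TPM + 1) (SD, n = 3). This difference was smaller in other settings. Over protein-coding isoforms alone it was 0.17 ± 0.22, and in the other deposited quantification, over all isoforms, 0.13 ± 0.24, both smaller than their SD. Of the 50-base words in Hsp90aa1's protein-coding isoforms 50.1% also occur in other genes, beside 4.13% for Hsp90ab1. The part of shared sequence in the difference was not tested. An exact sign-flip test of 3 libraries, two-sided, cannot give a p under 0.25, and none is given for any pair.

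The 11 HSP70 members split widely, 4 of them with at least 1 TPM in every library and 5 in none. Hspa8, the constitutive HSP70 of the cytosol and nucleus, was at 158.94, 64.17 and 82.90 TPM, a mean of 102 ± 50.2 TPM. Its value in replicate 1 lies apart from the other two. Hspa5 (BiP), the HSP70 of the endoplasmic reticulum, was at 86.08, 57.37 and 64.74 TPM. Hspa9 (mortalin), the mitochondrial HSP70, was at 41.58, 29.40 and 42.52 TPM, below Hspa5 in 3 of 3 libraries by 0.86 ± 0.23 on the log2(TPM + 1) scale. Over protein-coding isoforms alone that difference was 1.96 ± 0.26. Hspa14, an atypical member that associates with ribosomes, was at 31.67, 20.49 and 29.61 TPM. It overlaps another gene of the same strand, Gm45902 at 7.81 TPM, so part of its reads may be that gene's.

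The heat-inducible HSP70 genes were low among the members, at places 58 and 59 of 72. Among all genes with a protein-coding transcript they were near the middle, Hspa1a above 50.3% and Hspa1b above 48.3% of them in mean TPM. Hspa1a was at 0.69, 0.79 and 0.38 TPM and Hspa1b at 0.62, 0.45 and 0.22 TPM, and all 6 values lie under 1 TPM. Behind these stood 26.0, 68.1 and 16.4 expected counts for Hspa1a and 22.0, 36.7 and 8.65 for Hspa1b, above the floor of 3 counts in each library. Of the 50-base words in Hspa1a's transcripts 58.8% also occur in Hspa1b, so the split between the paralogs is uncertain, and their sum is the firmer value. Together they reached 1.31, 1.24 and 0.60 TPM. Hspa8 exceeded Hspa1a by 5.89 ± 0.69 and Hspa1b by 6.07 ± 0.57 on the log2(TPM + 1) scale, and both differences held in 3 of 3 libraries (SD, n = 3). Counting only protein-coding isoforms of Hspa8 left 3.97 ± 0.36 and 4.15 ± 0.24.

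Other HSP70 members with low values are known mainly from other tissues. Hspa2, best known from testis, was at 0.48, 0.33 and 0.42 TPM, and Hspa1l, also a testis gene, at 0.17, 0.19 and 0.22 TPM. Hspa1l shares 71.4% of its 50-base words with an antisense gene over it, Gm10501, so its reads cannot be told from that gene's without strand. Hspa12a was at 0.157 ± 0.0577 TPM and Hspa12b at 0.66 ± 0.325 TPM. Hspa13, a microsomal member, was at 3.31, 0.81 and 2.56 TPM, and fell under 1 TPM in replicate 2 alone.

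All 3 HSP110 members were present in every library. Hspa4 was at 30.75, 21.09 and 26.46 TPM, Hspa4l at 17.60, 9.65 and 15.28 TPM, and Hsph1, the heat-inducible HSP110, at 5.60, 5.60 and 5.35 TPM. The ranges of Hspa4 and Hspa4l do not overlap that of Hsph1. Hspa4 exceeded Hsph1 by 2.04 ± 0.27 on the log2(TPM + 1) scale, in 3 of 3 libraries. In TPM as deposited, Hsph1 had a coefficient of variation of 2.62%, the lowest of the 54 members with a mean of at least 1 TPM. Most coding genes were lower in replicate 2, so Hsph1 was not steady beside them. With their shift taken off it stood at −0.09, 0.38 and −0.30 on the log2(TPM + 1) scale.

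The chaperonin pair shares 1 promoter region, as the windows above show. Hspd1 (HSP60) was at 8.30, 6.73 and 11.46 TPM and Hspe1 (HSP10) at 2.46, 1.48 and 3.13 TPM. Replicate 2 was the lowest and replicate 3 the highest for both, which was also the order of the coding genes' median. With that shift taken off, on the log2(TPM + 1) scale, Hspd1 was lowest in replicate 1, at −0.16. Hspe1 then stood between −0.04 and 0.07. Hspd1 exceeded Hspe1 by 1.55 ± 0.11 in log2(TPM + 1) of the gene table (SD, n = 3). The other quantification gave −0.24 ± 0.39, with Hspe1 at 15.0 and Hspd1 at 12.1 TPM, and protein-coding isoforms alone 2.60 ± 0.21, so the order of the pair was not settled. Hspd1 shares 42.1% and Hspe1 44.8% of the 50-base words of its protein-coding isoforms with other genes.

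Small heat shock proteins were the lowest group. Of the 8, 2 had at least 1 TPM in every library, Hspb6 at 2.05, 1.38 and 2.68 TPM and Hspb11 at 2.18, 1.19 and 2.67 TPM. Hspb11 carries the family's symbol and is known as a subunit of the intraflagellar transport complex. Hspb1 (HSP25), an HSF1 target with 2 of the shorter elements, was at 1.02, 0.56 and 0.94 TPM, just outside the threshold together with Dnajc12 at 0.75 ± 0.285 TPM. Hspb9, a single-exon gene known from testis, was at 2.13, 0.85 and 3.26 TPM. Hspb7 was at 0.197 ± 0.085 TPM, and Hspb2, Hspb3 and Hspb8, known best from muscle, had no count in any library. A count of 0 allows up to 3 counts, and this covers counting error only.

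Among the 4 Dnaja members, which have the full domain order of bacterial DnaJ, 3 were present in every library. Dnaja1, a main cytosolic partner of Hspa8, was at 58.07, 25.09 and 42.43 TPM, and Dnaja2, which serves the same HSP70s, at 15.99, 6.81 and 9.63 TPM. Both were highest in replicate 1, as Hspa8 was, and lowest in replicate 2, where the coding genes' median was lowest too. With that shift taken off, replicate 1 stayed highest for each, and Dnaja2 and Hspa8 were lowest in replicate 3. Dnaja1 exceeded Dnaja2 by 1.86 ± 0.15 on the log2(TPM + 1) scale in 3 of 3 libraries, but by 0.25 ± 0.11 over protein-coding isoforms alone and by 0.70 ± 0.30 in the other quantification. Dnaja3, a mitochondrial member, was at 3.47, 2.00 and 4.44 TPM. Dnaja4 was at 0.29, 0.16 and 0.16 TPM, under 1 TPM in every library.

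Of the 13 Dnajb members, 10 were present in every library. Dnajb6, which keeps polyglutamine proteins from aggregating, was at 125.27, 60.90 and 103.42 TPM. Dnajb14, a membrane protein of the endoplasmic reticulum, was at 32.32, 15.98 and 33.24 TPM, and Dnajb11, a partner of BiP inside that compartment, at 13.20, 9.18 and 13.52 TPM. Dnajb1 (HSP40), the heat-inducible partner of Hspa1a and Hspa8, was at 1.37, 1.37 and 1.62 TPM. It lay below Dnajb6 by 5.25 on the log2(TPM + 1) scale, with an SD of 0.52, in every library. Its 3 TPM values lie close together, although most coding genes were lower in replicate 2. The other quantification gave a difference of −7.22 ± 0.74 and protein-coding isoforms alone −4.51 ± 0.43.

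Dnajb9, a reticulum protein induced by the unfolded protein response, was at 2.05, 0.60 and 1.47 TPM and lay below Dnajb11 in every library. Their difference was −2.48 ± 0.23 in log2(TPM + 1) (SD, n = 3), and −1.60 ± 0.42 in the other quantification. Dnajb13, a protein of motile cilia and sperm, was at 12.24, 13.94 and 14.20 TPM, above Dnajb1 in each library. Ucp2, at 70.1 TPM, overlaps Dnajb13 (chr7:100501716-100514960) on the opposite strand, and whether counting used strand is not given in the sources used here. Dnajb3 at 4.51 ± 2.05 TPM and Dnajb7 at 1.82 ± 1.07 TPM, single-exon genes known from testis, likewise lie under opposite genes with higher values. Dnajb8 had no count.

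The 28 Dnajc members, which have only the J domain in common, held 36.8% ± 3.43 of the members' TPM, and 20 were present in every library. Dnajc7, a cochaperone that binds both HSP70 and HSP90, was at 138.43, 91.53 and 150.90 TPM, a mean of 127 ± 31.3 TPM. Dnajc13, which acts on endosomes with Hspa8, was at 82.01, 72.83 and 93.82 TPM. Dnajc11, of the mitochondrial membrane, was at 28.88, 24.09 and 34.15 TPM, and Dnajc1, a reticulum membrane protein, at 22.50, 16.04 and 27.07 TPM. In all 4 of these replicate 2 was lowest and replicate 3 highest, which was also the order of the coding genes' median. With that shift taken off, Dnajc13 and Dnajc11 were highest in replicate 2, at 0.19 and 0.12 on the log2(TPM + 1) scale. Dnajc7 was then highest in replicate 1, at 0.05, and Dnajc1 in replicate 3, at 0.07.

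Dnajc8, found with splicing factors, was at 21.58, 17.37 and 23.91 TPM, Dnajc10, a disulfide reductase of the reticulum, at 24.84, 10.43 and 18.85 TPM, and Dnajc5, the cysteine string protein of secretory vesicles, at 17.58, 8.97 and 19.38 TPM. Dnajc19, of the mitochondrial import motor, was at 13.84, 5.79 and 15.33 TPM. Dnajc2, which works at the ribosome with Hspa14, was at 8.55, 5.77 and 11.06 TPM. Dnajc3, a partner of BiP in the reticulum lumen, was at 6.75, 2.71 and 5.54 TPM. At the other end, Dnajc6 (auxilin of neurons) and Dnajc5g had no count, and Dnajc22 and Dnajc5b had a TPM above 0 in 1 library each. Gak, the auxilin found in most tissues and no member by symbol, was at 54.19, 59.08 and 68.63 TPM.

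The order of the highest members was only partly separated. Dnajc7 exceeded Hspa8 in 2 of 3 libraries, by 0.39 ± 0.54 on the log2(TPM + 1) scale. Hspa8 and Dnajb6 differed by 0.03 ± 0.33, Dnajb6 and Hsp90b1 by −0.04 ± 0.32, and Hsp90b1 and Dnajc13 by 0.20 ± 0.19 (SD, n = 3). Among the first 7, a neighbour difference over 2 times its SD was found once, between Hspa5 and Dnaja1, at 0.77 ± 0.34 in 3 of 3 libraries. Around 1 TPM the order ran Dnajc30 at 1.20, Dnajc25 at 1.11, Hspb1 at 0.84 and Dnajc12 at 0.75 TPM in the mean.

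Much of this RNA was assigned to isoforms that do not encode the full protein. Isoforms classed as retaining an intron took 39.6%, 32.3% and 33.4% of the members' TPM in replicates 1, 2 and 3, a mean of 35.1% ± 3.93, beside 39.4% ± 2.53 over all genes with a protein-coding transcript (SD, n = 3). Of the members' expected counts, which are not divided by length, these isoforms took 20.4% ± 3.98. Protein-coding isoforms took 46.1% ± 3.40 and 47.6% ± 2.64. In each library both shares were lower in the members than over all such genes, while the ranges over libraries overlapped. The lower retained-intron share rested on Dnajc7, which has no such isoform in this annotation. Without it the members' share was 39.7% ± 4.13, beside 39.4% over all such genes. Of the 35 members with a mean of at least 5 TPM, 24 have an isoform of the retained-intron class, and in 10 of these 24 it held over 50% of the gene's TPM in every library, beside 36.5% of the 4956 such genes. Their median share was 47.8%, and 48.5% over those genes.

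**Figure D2:**
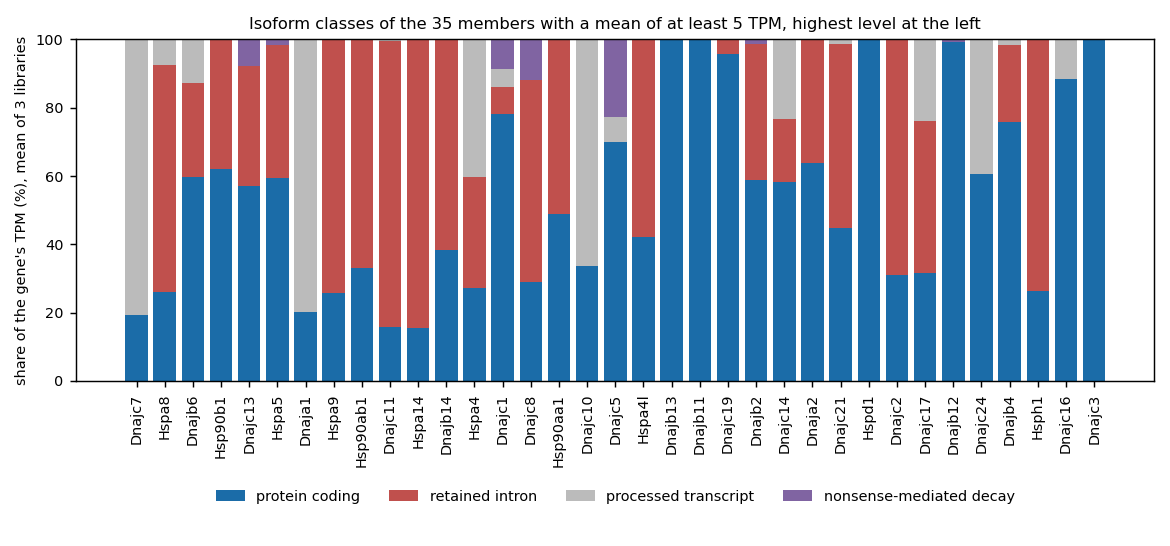
Bars give the share of each gene's TPM in 4 isoform classes of the annotation, in percent and as the mean of 3 libraries, for the 35 members with a mean of at least 5 TPM. Retained-intron isoforms hold 84.5% of Hspa14 and 83.7% of Dnajc11, processed transcripts 80.7% of Dnajc7 and 79.9% of Dnaja1, and Dnajb11, Hspd1 and Dnajc3 are wholly protein coding.

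Among members with a mean of at least 5 TPM, the highest retained-intron shares were those of Hspa14 at 84.5% ± 4.62, Dnajc11 at 83.7% ± 4.73, Hspa9 at 74.2% ± 0.948 and Hsph1 at 73.6% ± 4.66. Hsp90ab1 had 67.0% ± 3.24 and Hspa8 66.5% ± 10.2. Of the 24 members at that level that have such an isoform, Dnajc19 at 4.33% ± 3.92 and Dnajc1 at 7.92% ± 4.92 had the lowest shares, and Dnajc19's stayed under 10% in every library. In Hspa8 (chr9:40800984-40810087) 1 isoform, Hspa8-208 of 3158 bases, was at 71.96, 20.26 and 31.28 TPM, a mean of 41.2 ± 27.2 TPM. Its protein-coding isoforms summed to 32.72, 20.78 and 21.05 TPM. The gap between replicate 1 and the other libraries in Hspa8 was thus mostly in retained-intron isoforms. The gene's introns hold the small nucleolar RNAs Snord14c, Snord14d and Snord14e, all listed at 0 in the gene table.

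Processed transcripts, a class for isoforms without an open reading frame, took 17.3% ± 0.618 of the members' TPM and 9.33% ± 0.465 over all genes with a protein-coding transcript. Dnajc7 accounted for much of the excess: it has no retained-intron isoform in this annotation, and 80.7% ± 2.27 of its TPM was in processed transcripts. Without Dnajc7 the members' share was 8.97% ± 0.863, and without Dnajc7 and Dnaja1 it was 5.85% ± 0.307. Shares of 79.9% in Dnaja1, 66.4% in Dnajc10 and 40.4% in Hspa4 were the next highest among members with a mean of at least 10 TPM.

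Counting protein-coding isoforms alone, an alternative chosen after the data were seen, changed the order of the members. Hsp90b1 then led at 63.18, 52.06 and 61.95 TPM, a mean of 59.1 ± 6.10 TPM, followed by Dnajb6 at 56.8 ± 17.2, Dnajc13 at 47.1 ± 3.92 and Hspa5 at 40.8 ± 6.29 TPM (SD, n = 3). Hspa8 at 24.9 ± 6.82 and Dnajc7 at 24.7 ± 7.39 TPM took places 5 and 6. At least 1 TPM of protein-coding isoforms in every library was found for 42 of the 72 members (58.3%), beside 36.8% of the 21901 genes.

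The other deposited quantification of the same libraries gave higher levels for most members. It was above the gene table in 63 of 72 members, and in 16787 of the 21901 genes with a protein-coding transcript. Of all 72 members 6, and of all 21901 genes 6583, had no count in the gene table. The median ratio was 1.57 over the 54 members with a mean of at least 1 TPM, and 1.60 over the 10235 genes. The ratio was over 2 in 16 of the 54 (29.6%) and in 29.6% of all such genes. Dnajb6 had 519 TPM there and 96.5 TPM in the gene table. Of its isoforms, Dnajb6-204 of 123 bases had 165 TPM there and 0 in the gene-table quantification, and Dnajb6-211 of 218 bases had 170 and 0.587 TPM. Both are shorter than the 250 to 400 bases that the labels give as the size range.

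**Figure D3:**
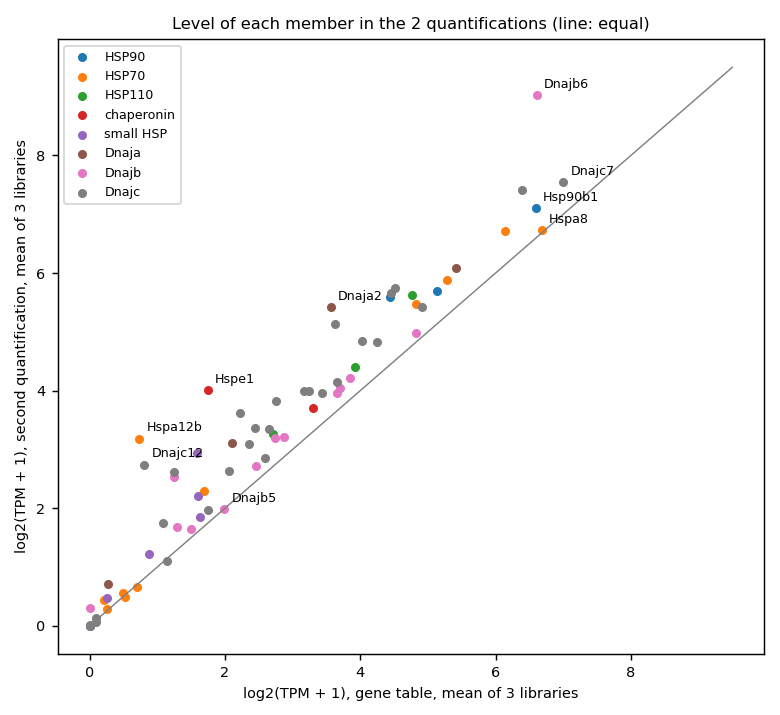
Each point is 1 of the 72 members, with the mean log2(TPM + 1) of 3 libraries in the gene table on the horizontal axis and in the other deposited quantification on the vertical axis. Most points lie above the line of equal values, Dnajb6, Hspe1, Hspa12b and Dnajc12 farthest, while Hspa8 lies close to it.

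The ratio was 6.37 for Hspe1, 5.38 for Dnajb6, 3.85 for Dnaja2 and 3.71 for Dnajc28. Hspa12b, at 8.08 against 0.66 TPM, and Dnajc12, at 5.68 against 0.75 TPM, were over 1 TPM in the mean only there. Hspe1's difference was in its protein-coding isoform, at 12.9 TPM there and 0.59 TPM in the gene-table quantification. At the low end stood Dnajc30 at 0.953, Dnajb5 at 0.996, Hspa8 at 1.03 and Dnajb14 at 1.13. Hspa8 was thus near equal in both although 68.8% of the 50-base words of its protein-coding isoforms occur in other genes. The most, 64.4%, occur in the pseudogene Gm15459, which was at 0.24 TPM. Words found only in Hspa8's retained-intron isoforms, which held 66.5% of its TPM, were not included.

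Single-exon genes among the members were low. The 8 members without an intron in any coding transcript, Hspa1a, Hspa1b, Dnajb3, Dnajb7, Dnajb8, Dnajc30, Hspb3 and Hspb9, had a median of 0.91 TPM and a maximum of 4.51 TPM, and the other 64 a median of 5.59 TPM. Dnajb3, Dnajb7, Dnajb8 and Hspb9 among the 8 are known from testis. Of all members, 40 were overlapped by another gene, and 15 of these by a gene of the opposite strand with a higher mean TPM. Among the 15 were Dnaja3 with Coro7 at 107 TPM, Dnajc19 with Fxr1 at 47.5, Dnajc1 with Mllt10 at 39.2 and Hspb6 with Lin37 at 10.3 TPM. Part of their reads may be those genes' if counting did not use strand. Leaving out these 15 and members sharing over 10% of their 50-base words, an alternative also chosen after the data were seen, left 43 with a median of 4.46 ± 1.53 TPM, beside 4.23 ± 1.68 TPM over all 72 (SD, n = 3).

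**Figure D4:**
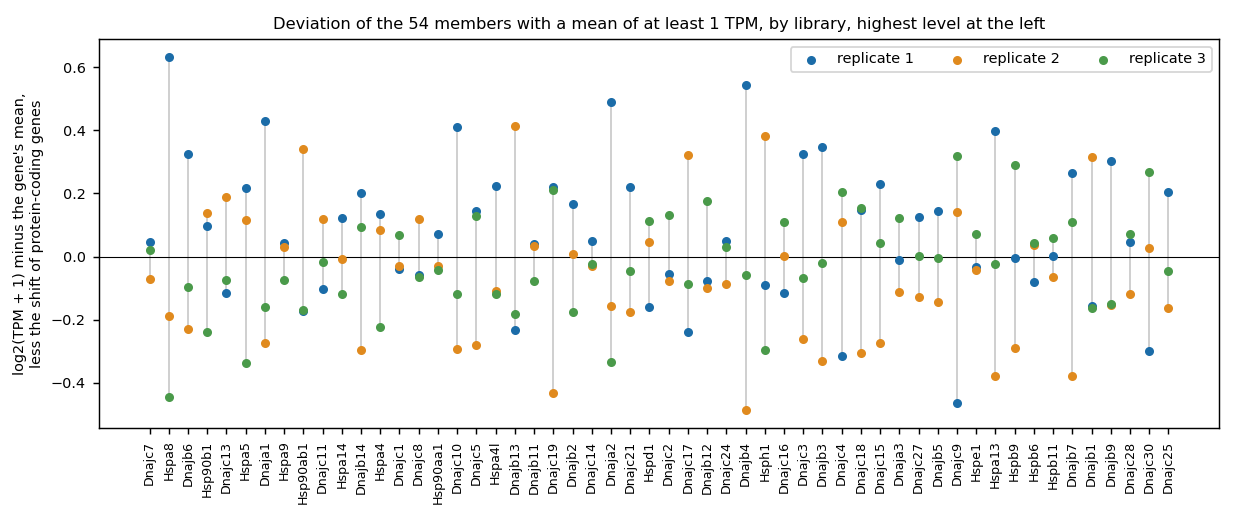
Points give, for the 54 members with a mean of at least 1 TPM, log2(TPM + 1) in a library minus the gene's mean of 3 libraries, less the same median over protein-coding genes, and grey lines join the lowest to the highest library. Hspa8 reaches 0.63 in replicate 1, and Hsp90ab1, Hsph1 and Dnajb13 are highest in replicate 2.

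Between libraries the members' common shift was small beside that of all coding genes. After the shift of the coding genes was taken off, the members' median deviation was 0.06, −0.08 and −0.02 on the log2(TPM + 1) scale in replicates 1, 2 and 3, with 34, 20 and 23 of 54 members above 0. The value in replicate 1 changed sign with count-based scaling, to −0.0146 with edgeR's TMM factors and −0.0325 with DESeq2 size factors. The median SD per gene, with the shift taken off, was 0.204 for members and 0.238 for the 10235 coding genes. After the shift, replicate 1 was the highest library for 30 of the 54 (55.6%), beside 39.2% of those genes. Hspa8 stood at 0.63, −0.19 and −0.45 after the shift, Dnaja2 at 0.49, −0.16 and −0.34, and Dnajb4, a heat-inducible relative of Dnajb1, at 0.54, −0.49 and −0.06.

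Fewer members were highest in replicate 2, 9 of the 54 (16.7%), beside 39.2% of the 10235 coding genes. It was the lowest library for 28 of the 54 (51.9%), beside 38.9% of those genes. Among the 9, 4 are given here. Hsph1 stood at −0.09, 0.38 and −0.30, Hsp90ab1 at −0.17, 0.34 and −0.17, Dnajb1 at −0.16, 0.32 and −0.16 and Dnajb13 at −0.23, 0.41 and −0.18. For each gene given here with its 3 deviations, the highest library was the same with edgeR's TMM factors and with DESeq2 size factors, and Dnajb4 in replicate 3 became 0.04 with both. Before the shift was taken off, the largest SDs of log2(TPM + 1) were those of Dnajb4 at 0.77, Dnajc19 at 0.69, Hspa8 at 0.67, Hspa13 at 0.66 and Dnajb7 at 0.64. They still hold the shift and cannot be set beside the median SDs above. Starting RNA and depth differed between these libraries as given above, and their part in these differences was not tested.

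**Figure D5:**
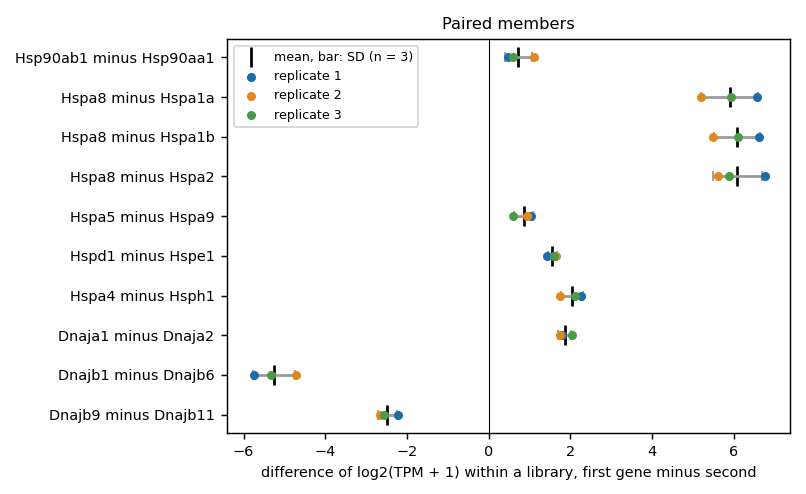
For 10 pairs of members, points give the difference of log2(TPM + 1) within each library, the first gene minus the other, with the mean as a black tick and the SD as a bar (n = 3). All 3 libraries lie on 1 side of 0 in each pair, from −5.25 for Dnajb1 minus Dnajb6 to 6.09 for Hspa8 minus Hspa2.

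Other genes of the chaperone system were taken from a list of 55, all of which were found. At least 1 TPM in every library was reached by 46 (83.6%), with a median of 9.00 ± 2.43 TPM (SD, n = 3). Over all genes with a protein-coding transcript these were 42.6% and 0.56 ± 0.164 TPM. Bag6, a chaperone for tail-anchored membrane proteins, was at 71.1 ± 15.1 TPM, Gak at 60.6 ± 7.34, Fkbp8, a mitochondrial immunophilin, at 58.9 ± 18.2, and Chordc1, an HSP90 partner, at 48.1 ± 22.0 TPM. Hsf1 itself was at 18.53, 19.89 and 28.34 TPM, a mean of 22.3 ± 5.31 TPM, and Hsf2 at 9.99 ± 4.01 TPM. Stip1, which links HSP70 to HSP90, was at 5.24 ± 0.81 TPM and Bag3, a nucleotide exchange factor that HSF1 induces, at 1.63 ± 0.679 TPM. Hsf1 was thus above Bag3, Dnajb1, Hspa1a and Hspa1b in each library, and Cryaa and Odf1, small heat shock proteins of lens and sperm, were listed at 0.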

How the data were processed

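Chromatin RNA of 3 libraries was sequenced after ribosomal RNA depletion. Gene and transcript tables made by the authors hold expected counts and TPM, per the file headers. Their transcript table adds the percent of a gene's abundance in an isoform, per the file headers. Estimated counts and TPM of another quantification were also deposited. The assembly is mm10, per the labels, with GENCODE M21 as annotation, per the deposited text. Not given in the sources used here are the aligner, the counting programs and the use of strand. The members and gene lists were chosen with earlier results of these data known. TPM was used as deposited. Detection was set at 1 TPM, logs used a pseudocount of 1, and the floor was 3 counts. Isoform classes came from the annotation's transcripts. The 50-base words were those of a member's protein-coding isoforms, searched in the transcripts of all other genes. Named were the 4 highest (Dnajc: 8) and 2 lowest members of each role, all paralog pairs, the 5 largest SDs, the 5 largest ratios between quantifications in each direction, the 4 highest and 4 lowest retained-intron shares, members within 2 places of 1 TPM, and of the list of other chaperone genes the 4 highest, the 2 lowest and Hsf1, Hsf2, Bag3 and Stip1. Some of these are not printed, and members named beyond them were chosen after their values were seen. Alternatives used edgeR 4.0.16 and DESeq2 1.42.0 in R 4.3.3 on rounded expected counts, for scaling only. Other steps used Python 3.11.15, numpy 2.4.6 and pandas 2.3.3, and the deviation step was tested on simulated data. No paired analysis was possible because there is 1 group.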

Additional observations from a re-analysis of the deposited data

How the results depend on the processing

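The count of members present in every library, 47, was 54 at a minimum of 0.5 TPM, 39 at 2 TPM, 54 in the other quantification and 47 to 53 with 1 library left out. The median level of 4.23 TPM moved to 8.12 TPM in the other quantification and to 18.7 when TPM was rescaled over protein-coding genes, which changes the unit, was 2.67 TPM over protein-coding isoforms alone, an alternative chosen after seeing the data, and was 3.63 to 5.19 TPM with 1 library left out. The retained-intron share of 35.1% was 20.4% of expected counts, which do not weight short isoforms up as TPM does, 39.7% without Dnajc7, and 32.8% to 36.5% with 1 library left out. The members' deviation in replicate 1, 0.06 on the log2 scale, became −0.0146 with edgeR factors and −0.0325 with DESeq2 size factors. That in replicate 2, −0.08, became −0.30 without the filter on low values and −0.0036 with DESeq2 size factors, and that in replicate 3, −0.02, became 0.13 without the filter. With 1 library left out the deviations were 0.0453 to 0.0569 in replicate 1, −0.0569 to −0.0553 in replicate 2 and −0.0453 to 0.0553 in replicate 3. The sign held in all alternatives run for replicate 2 and changed for replicates 1 and 3. Among the 10 pairs only Hspd1 minus Hspe1 changed its sign, to −0.24 in the other quantification, and the cause was not tested. With that quantification 5 more pairs moved by over their SD, with a pseudocount of 0.1 there were 6 such pairs and over protein-coding isoforms alone 9, all with the sign kept, and none moved so far with 1 library left out. Members with an element of 3 units in a promoter were 4 and with 2 units 16. No paired analysis was possible because the libraries form 1 group. Depth limits the low members: 9 had at most 3 counts in every library, so their absence is not shown.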
